A study of Mus musculus with 12 samples.

Results

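The 33 genes described here mark the blood vessels and the blood of the developing mouse brain: 17 genes of endothelial cells, 6 of pericytes, 2 of the basement membrane around vessels and 8 of red cells. They were found by gene symbol among the 51912 genes of each count file. They are read mostly from cells that Emx1-Cre, a recombinase of the dorsal forebrain progenitors and their descendants, does not target. Of the 33 genes, 17 passed a filter on low counts and were tested (9 endothelial, 3 pericyte, 2 basement membrane and 3 red cell genes), and 16 were too low. The cortices, at embryonic day 15.5, came from 6 Emx1-Cre Arid1a conditional mutants and 6 embryos labelled control. Arid1a encodes a subunit of BAF, a complex that remodels chromatin, and the labels give neither the strain nor the alleles that the controls carry. Litter 1 gave mutants 1 and 2 and controls 1 to 4, and litter 2 gave mutants 3 to 6 and controls 5 and 6. The mutants held 1 male and the controls 4, so neither litter nor sex was balanced over the genotypes. Each library is labelled with 1 litter and 1 sex, and p-values measure the spread between these libraries. Only litters 1 and 2 were sampled, so a litter call describes these litters, and its p-value does not measure the spread between litters.

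Vessels invade the cortex from its surface early in its growth. Endothelial cells line them, seal their junctions and carry nutrient transporters, which together make the blood–brain barrier, and pericytes sit on them within a shared basement membrane of type IV collagen and laminin. Red cells in the embryo come in successive waves: primitive cells from the yolk sac use embryonic globins, and definitive cells from the fetal liver use adult globins. Globin RNA in undissociated brain tissue comes mainly from blood left in the vessels. In bulk tissue, fewer cells of a type and less RNA per cell cannot be told apart.

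Much of what follows turns on the globins, so the proximal promoters of 4 of them are shown first, 3 adult-type genes and 1 embryonic gene. Each is the 120 bases before the RefSeq start, 5′ to 3′ on the gene's strand (GRCm38.p6). Capitals mark matches to CCAAT and CACCC, 2 boxes long known from globin promoters, which were searched on both strands together with GATAA. RefSeq entries were found for 28 of the 33 genes.
Hba-a1, chr11:32283552-32283671, plus strand: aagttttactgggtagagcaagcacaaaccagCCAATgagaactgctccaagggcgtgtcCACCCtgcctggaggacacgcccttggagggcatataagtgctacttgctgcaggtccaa
Hba-a2, chr11:32296372-32296491, plus strand: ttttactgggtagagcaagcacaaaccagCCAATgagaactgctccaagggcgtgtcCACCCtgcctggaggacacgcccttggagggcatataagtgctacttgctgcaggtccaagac
Hbb-bs, chr7:103827929-103828048, minus strand: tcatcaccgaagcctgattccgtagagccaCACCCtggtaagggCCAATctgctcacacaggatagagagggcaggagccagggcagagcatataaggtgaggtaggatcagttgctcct
Hbb-y, chr7:103853208-103853327, minus strand: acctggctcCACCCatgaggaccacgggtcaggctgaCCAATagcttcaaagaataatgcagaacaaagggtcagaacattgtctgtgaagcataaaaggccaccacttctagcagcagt
The 2 alpha-globin windows share an unbroken run of 117 bases, whereas the longest run that either shares with Hbb-bs is 9 bases and with Hbb-y 7 bases. In both alpha genes the CCAAT box lies farther from the start than the other box, at 88 and 60 bases before the start of Hba-a1. In both beta-like genes the order is the reverse, since the CACCC box comes first, at 90 bases before the start of Hbb-bs and 111 before that of Hbb-y, and the other box follows at 76 and 83 bases. All 4 windows hold both boxes. Over the 32851 RefSeq windows of this length, the first box is held by 21.3% and the second by 31.7%. The third motif searched, GATAA, is held by 10.5% of windows and by none of these 4, which says only that its letters are not there. A match is a description of the letters and not a measured binding site.

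Gene counts per library ran from 643197 to 3525121, with mutants 1, 4 and 2 the shallowest, so that 1 count was worth 0.277 to 1.52 CPM (counts scaled to a common library total, with TMM factors). The 33 genes together held 8050 counts, 268 to 1209 per library, and their low counts limit every value below. Each adjusted p comes from edgeR's quasi-likelihood test over 10678 genes in a model of genotype, litter and sex, with Benjamini-Hochberg adjustment, and a gene was called at an adjusted p under 0.05. Arid1a stood at 396 to 525 CPM in mutants and 464 to 575 CPM in controls, with a log2 fold change of -0.30 (SE 0.0958, edgeR adjusted p = 0.277), and a gene total does not resolve a floxed exon. Emx1 stood at 24.0 to 77.5 CPM over the 12 libraries. The cortex label was met by 3046 to 4946 CPM summed over 10 genes of cortical neurons, of which Tubb3 was listed at 0 in every library, as was Sox2 among the progenitor genes. Neurons and progenitors use these genes, so a low count below is not read as low expression. Of the markers of other tissues, the 7 choroid plexus genes summed to 180 CPM in control 5, led by Ttr, against 0.46 to 16.3 CPM in the other 11 libraries, and the 14 meningeal genes to 72.9 CPM against 21.8 to 48.3 CPM.

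No vascular or blood gene was called between mutants and controls. Of the 17 tested, 0 were called by edgeR, DESeq2 or limma-voom, where 0.215% of all genes tested were called by edgeR; at an unadjusted p under 0.05 the counts were 3, 1 and 4, against 8.78% of all genes by edgeR. Fitted log2 fold changes, mutant minus control, ran from -0.55 (Slco1c1) to 0.99 (Hba-a2), with 11 positive, 6 negative and a median of 0.10, against -0.001 over all genes tested. For 11 of the 17 genes the sign turned in at least 1 alternative, so directions of uncalled values are given only as fitted. None of the 33 genes had mutants and controls that did not overlap in CPM, as 1.26% of genes tested had. Between litters, 3 of the 17 were called, all lower in litter 2: the thyroid hormone and organic anion transporter Slco1c1 and the globins Hba-a2 and Hbb-bs. The background of that comparison was 1.31% of genes tested, 74 higher and 66 lower in litter 2, and 7 of the 17 were under an unadjusted p of 0.05, as 15.4% of all genes tested were.

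**Figure D1:**
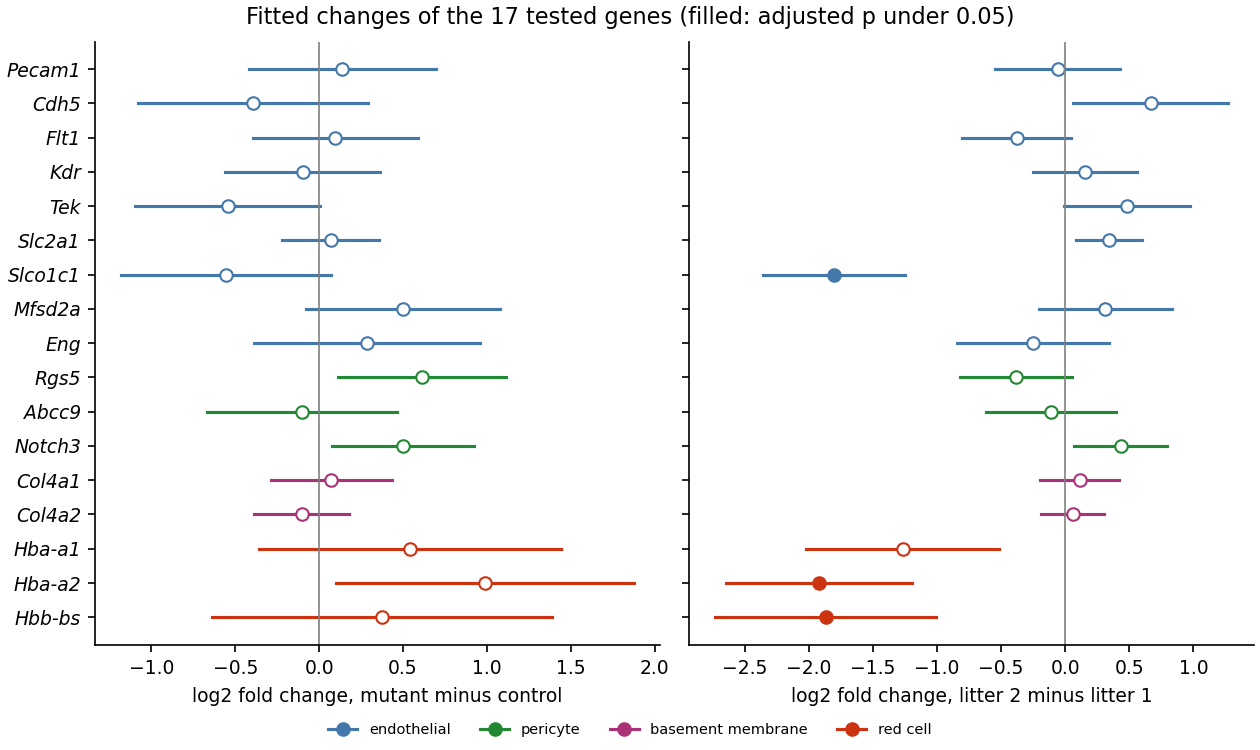
Fitted log2 fold changes of the 17 tested genes for genotype (left) and litter (right), each with its approximate 95% interval from the SE, coloured by cell class; filled points have an edgeR adjusted p under 0.05. No point is filled for genotype, and the filled points for litter, all below 0, are Slco1c1 (-1.80), Hba-a2 (-1.92) and Hbb-bs (-1.87).

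The endothelial genes summed to 149 to 173 CPM in controls and 136.5 to 197.5 CPM in mutants, with mutant 1 the highest. By litter the sums ran from 153 to 197.5 CPM in litter 1 and from 136.5 to 173 CPM in litter 2, so neither grouping separated the libraries. Per kilobase of exon, the mean levels of the 17 genes ranged from 9.89 CPM for Slc2a1 to 0.0187 CPM for Ly6c1. The order at the top was Slc2a1, Mfsd2a (5.01), Cldn5 (3.69), Slco1c1 (3.23) and Kdr (2.05 CPM per kilobase), with transporters of the barrier taking 3 of these 5 places.

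**Figure D2:**
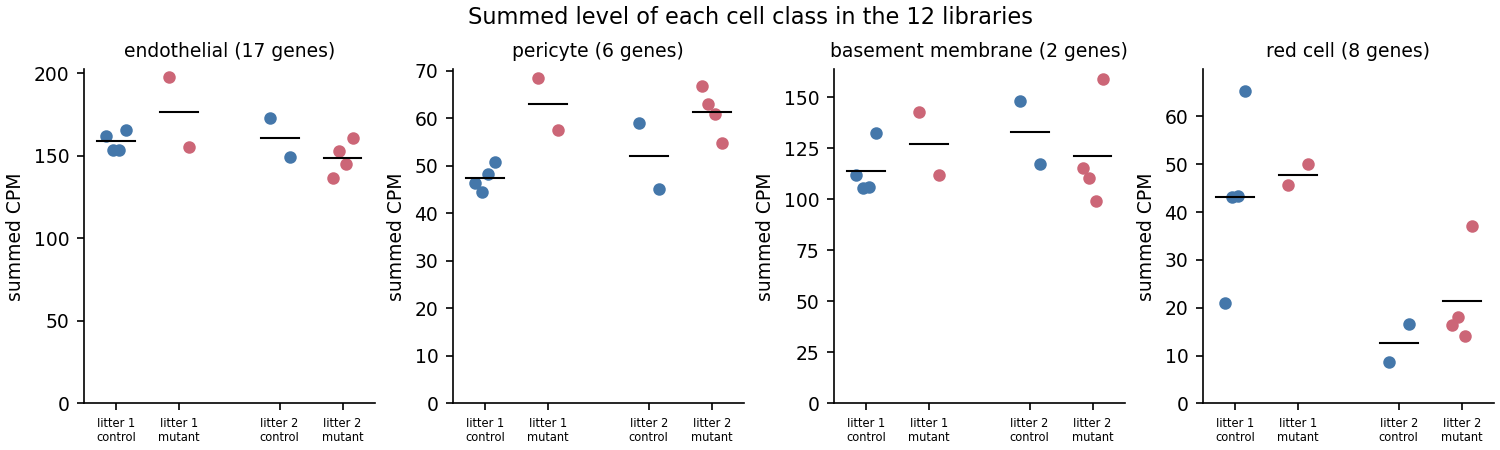
Summed CPM of all genes of each cell class in each library (points) by litter and genotype, with the group mean as a line; blue points are controls and red points mutants. Red cell sums were 20.9 to 65.3 CPM in litter 1 and 8.68 to 37.2 CPM in litter 2. The sums of every class, red cells included, overlapped between litters.

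Slco1c1 (chromosome 6, 141524368 to 141570177, plus strand) encodes a transporter of thyroxine at brain capillaries, which choroid plexus epithelium also carries. In litter 1, controls 1 to 4 had 37.2, 33.2, 22.2 and 25.0 CPM and mutants 1 and 2 had 28.9 and 10.6 CPM. In litter 2, controls 5 and 6 had 6.94 and 7.82 CPM and mutants 3 to 6 had 4.71, 10.3, 5.57 and 8.36 CPM. All 6 libraries of litter 1 stood above all 6 of litter 2, with mutant 2 nearest to them. Slco1c1 was the 1 tested gene of the 17 whose litters did not overlap, as 1.66% of all genes tested did not. The fitted change was -1.80 on the log2 scale (SE 0.280, edgeR adjusted p = 0.00406), a level 3.49-fold lower in litter 2. It was called in each of the 20 alternatives that gave it an adjusted p (-2.07 to -1.62). In control 5, with its high choroid plexus sum, Slco1c1 was at the level of the other libraries of litter 2. The part of choroid plexus tissue in the levels of Slco1c1 was not tested. The genotype value of Slco1c1 was -0.55 (SE 0.320, edgeR adjusted p = 0.687), and -0.11 within litter 2 alone.

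Among the other barrier transporters, Slc2a1 and Mfsd2a did not share that pattern, and Abcb1a was not tested. Slc2a1, the glucose transporter GLUT1 of brain capillaries (chromosome 4, 119108711 to 119137983, plus strand), had 30.5, 27.6, 30.1 and 35.5 CPM in controls 1 to 4 and 27.4 and 30.9 CPM in mutants 1 and 2. In litter 2 it had 37.6 and 37.3 CPM in controls 5 and 6 and 37.1, 46.2, 41.5 and 34.4 CPM in mutants 3 to 6. Its libraries of litter 2 were higher but for mutant 6, which lay below control 4, and the change of 0.34 (SE 0.131, edgeR adjusted p = 0.220) was not called. Its genotype value was 0.07 (SE 0.147, edgeR adjusted p = 0.970), with an interval from -0.22 to 0.36.

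Mfsd2a, a lipid carrier that limits transcytosis across the barrier (chromosome 4, 122946850 to 122961188, minus strand), had 8.78, 8.48, 9.42, 7.84, 12.15 and 9.20 CPM in controls 1 to 6. In mutants 1 to 6 it had 10.6, 10.6, 11.1, 23.1, 7.28 and 16.7 CPM. Mutants 4 and 6 were the highest of the 12 libraries and mutant 5 the lowest, so the genotypes overlapped. The genotype value of Mfsd2a was 0.50 (SE 0.295, edgeR adjusted p = 0.693) and its litter value was 0.31 (SE 0.264, edgeR adjusted p = 0.62). Abcb1a, the drug efflux pump P-glycoprotein, had 73 counts in all and was not tested; 22.5% of its 50-base stretches also occur in other genes, mostly its paralog Abcb1b.

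The vascular endothelial growth factor receptors were among the better measured genes. Kdr, the main signalling receptor, had a lowest, median and highest level of 11.3, 18.8 and 27.2 CPM in controls and 14.9, 17.9 and 21.3 CPM in mutants, and a genotype value of -0.10 (SE 0.236, edgeR adjusted p = 0.976). Flt1, a decoy for the same ligand, had 18.0, 20.5 and 26.9 CPM in controls and 12.85, 20.1 and 32.99 CPM in mutants (0.10, SE 0.251, edgeR adjusted p = 0.978). The mutant range of Flt1 held the whole control range, and the control range of Kdr held the whole mutant range. Across the 12 libraries the levels of Flt1 and Kdr did not track each other (Pearson's r = 0.01, permutation p = 0.976; Spearman's rho = -0.05, permutation p = 0.883).

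Of the angiopoietin receptors, Tek, which binds angiopoietins, had 6.03, 9.22 and 11.04 CPM in controls and 5.32, 6.53 and 7.71 CPM in mutants. All 6 mutants lay below the control mean of 8.86 CPM, but the ranges overlapped and the value of -0.54 (SE 0.281, edgeR adjusted p = 0.619) was not called. Its orphan partner Tie1 had 100 counts and was not tested (2.51 to 6.03 CPM in controls and 2.13 to 7.60 CPM in mutants). Eng, the TGF-beta co-receptor endoglin, had 4.52, 6.25 and 9.19 CPM in controls and 5.14, 8.44 and 13.7 CPM in mutants (0.29, SE 0.344, edgeR adjusted p = 0.906). Robo4, a stabiliser of vessels, had 47 counts, 10 of them in mutant 1, whose 15.2 CPM stood above the 0 to 3.76 CPM of the other libraries. Egfl7, a secreted endothelial protein, had 33 counts; 6482 bases of its locus are shared with the same-strand gene Gm20532, so the split of reads between them is uncertain.

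Junction and surface genes gave no call either, at lower counts. Pecam1, an adhesion molecule of all endothelium, had 7.77, 9.18 and 12.4 CPM in controls and 6.42, 11.75 and 16.7 CPM in mutants (0.14, SE 0.285, edgeR adjusted p = 0.967). Cdh5, the junction cadherin VE-cadherin, had 5.60, 7.44 and 13.3 CPM in controls and 3.04, 7.04 and 11.6 CPM in mutants (-0.39, SE 0.349, edgeR adjusted p = 0.835). The Cdh5 litter value was 0.67 (SE 0.308, edgeR adjusted p = 0.308). Cldn5, the main claudin of brain tight junctions, had 107 counts and was not tested, at 2.93 to 5.23 CPM in controls and 3.85 to 10.6 CPM in mutants. Esam, a further junction protein, had 90 counts, and Emcn, a sialomucin of veins and capillaries, had 47. Emcn stood at 1.84 to 3.77 CPM in controls and 0 to 1.86 CPM in mutants, the 2 ranges overlapping by a narrow margin. These levels rest on 35 counts against 12, which are not scaled for the unequal depth of the libraries. With no filter the edgeR genotype value of Emcn was -0.91 (SE 0.734, adjusted p = 0.905), which was not called. Ly6c1 had 1 count in 12 libraries, and 32.8% of its 50-base stretches are shared, mostly with Ly6c2.

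The pericyte genes summed to 44.5 to 59.0 CPM in controls and 54.8 to 68.4 CPM in mutants, ranges that overlap through control 5. Notch3, a Notch receptor found in mural cells (chromosome 17, 32120820 to 32166852, minus strand), held 649 of the 1228 counts of this class, so the sums lean on it. Notch3 had 16.3, 14.1, 24.9, 25.0, 34.1 and 23.5 CPM in controls 1 to 6. In mutants 1 to 6 it had 28.9, 28.7, 42.6, 28.3, 39.0 and 31.6 CPM. All 6 mutants were above the control mean of 23.0 CPM, and control 5, at 34.1 CPM, was above 4 of them. The genotype value of Notch3 was 0.50 (SE 0.215, edgeR adjusted p = 0.497, unadjusted p = 0.0320) and 0.40 within litter 2 alone, and its litter value was 0.43 (SE 0.185, edgeR adjusted p = 0.270). Notch3 also overlaps the antisense gene Gm17276, and whether the counting used strand is not given in the sources used here.

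Rgs5, a regulator of G protein signalling and a common pericyte marker (chromosome 1, 169655501 to 169695813, plus strand), had 10.4, 9.19, 9.79, 9.71, 9.83 and 7.82 CPM in controls 1 to 6. In mutants 1 to 6 it had 19.75, 14.9, 9.69, 15.4, 10.3 and 10.2 CPM. The controls lay close together, and mutants 1, 2 and 4, the 3 shallowest libraries, were the 3 highest. The genotype value was 0.61 (SE 0.255, edgeR adjusted p = 0.469, unadjusted p = 0.0282), and it was 0.35 without mutants 1 and 4.

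The remaining pericyte genes included both subunits of the vascular ATP-sensitive potassium channel. Abcc9, its sulfonylurea receptor subunit, had 10.1, 12.4 and 15.9 CPM in controls and 6.85, 10.5 and 18.0 CPM in mutants (-0.10, SE 0.289, edgeR adjusted p = 0.983). Kcnj8, its pore subunit and the neighbour of Abcc9 on chromosome 6, had 30 counts. Vtn, the adhesive glycoprotein vitronectin, had 40 counts and Anpep, the surface peptidase CD13, had 16. Across libraries Rgs5 and Abcc9 gave a Pearson's r of 0.17 (permutation p = 0.610, Spearman's rho = 0.10, permutation p = 0.765), which fell to -0.30 without mutants 1 and 4.

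The basement membrane genes Col4a1 and Col4a2 held the most counts of the 33 genes, 1476 and 1193. They encode the alpha chains that join into the main type IV collagen and lie head to head on chromosome 8 (11198423 to 11312826, minus strand, and 11312805 to 11449287, plus strand), with 22 annotated bases in common. Col4a1 had 60.6, 54.4, 54.6, 73.2, 84.5 and 65.3 CPM in controls 1 to 6 and 85.1, 64.9, 63.7, 66.8, 53.1 and 94.8 CPM in mutants 1 to 6. Col4a2 had 51.4, 50.9, 51.6, 59.4, 63.6 and 52.0 CPM in controls 1 to 6 and 57.7, 46.8, 51.5, 43.7, 46.2 and 64.1 CPM in mutants 1 to 6. In both genes the mutants spread over a range that held the whole control range.

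The genotype value was 0.07 for Col4a1 (SE 0.183, edgeR adjusted p = 0.978) with an interval from -0.29 to 0.43. For Col4a2 it was -0.10 (SE 0.145, edgeR adjusted p = 0.924), with an interval from -0.39 to 0.18. Litter values were 0.11 and 0.06, and neither a genotype nor a litter difference was called.

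Col4a1 and Col4a2 rose and fell together across libraries. On log2(CPM + 1), Pearson's r was 0.76 (permutation p = 0.00606, adjusted p = 0.0182 over 6 gene pairs) and Spearman's rho 0.69 (permutation p = 0.0157, adjusted p = 0.0472), n = 12. Without mutants 6 and 1, the libraries farthest from the median of Col4a1, r was 0.63. Within litters r was 0.66 (exact permutation p = 0.161) and 0.86 (exact permutation p = 0.0583), with n = 6 each, so neither litter alone passed. Libraries share their depth and scaling in both genes. Control 5, mutant 6 and mutant 1, the highest libraries for Col4a1, also had the highest meningeal sums (72.9, 48.3 and 38.0 CPM). Control 2 came next at 37.5 CPM, with a low Col4a1 level of 54.4 CPM. The part of meningeal tissue in the collagen levels was not tested. The pairs were chosen after seeing the data. Pecam1 and Cdh5, the third endothelial or mural pair, gave r = 0.15 (permutation p = 0.643) and rho = 0.30 (permutation p = 0.342), and r = 0.53 without mutants 1 and 4.

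**Figure D3:**
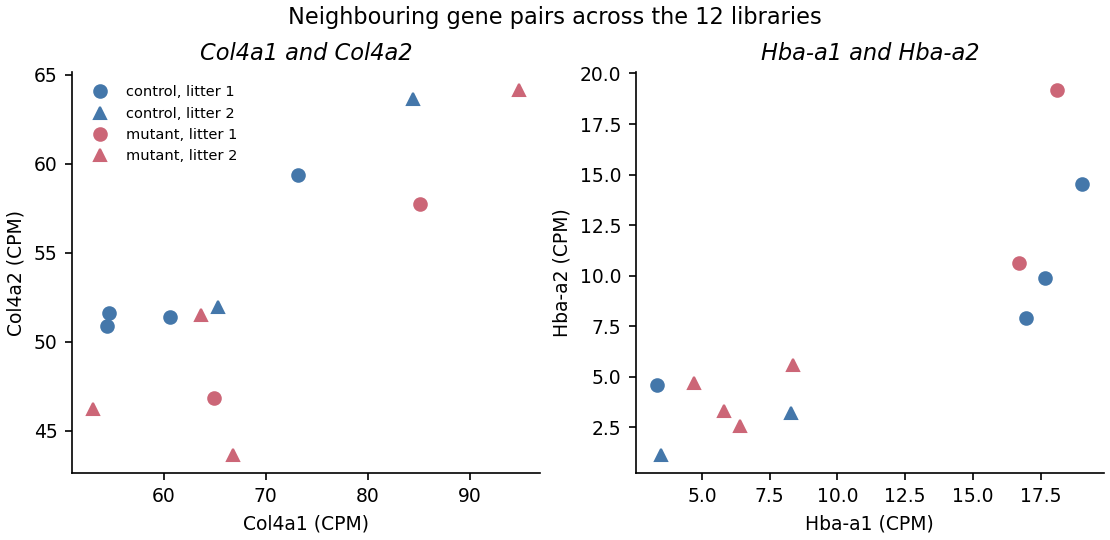
Levels in CPM of Col4a1 against Col4a2 (left) and of Hba-a1 against Hba-a2 (right), 1 point per library; circles are litter 1, triangles litter 2, blue controls and red mutants. The collagen pair spreads along 1 diagonal in both litters, while the alpha-globins fall into a low cluster with all of litter 2 and control 1 and a high cluster with the other 5 libraries of litter 1.

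Among the red cell genes, the globins Hba-a2 and Hbb-bs were called lower in litter 2. Hba-a1 and Hba-a2, the adult alpha-globins (chromosome 11, 32283511 to 32284465 and 32296489 to 32297298, plus strand), and Hbb-bs, an adult beta-globin (chromosome 7, 103826534 to 103828096, minus strand), had the highest levels per kilobase in the class, at 13.2, 10.9 and 9.60 CPM. These 3 were tested, and 2 were called (background 1.31%). All 6 globins together summed to 18.8 to 57.1 CPM in litter 1 and 7.52 to 30.7 CPM in litter 2, with control 1 the lowest of litter 1 and mutant 6 the highest of litter 2.

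Hba-a2 had 4.60, 9.89, 7.91 and 14.6 CPM in controls 1 to 4 and 10.6 and 19.2 CPM in mutants 1 and 2, all of litter 1. In litter 2 it had 1.16 and 3.22 CPM in controls 5 and 6 and 3.32, 2.57, 4.71 and 5.58 CPM in mutants 3 to 6. The litters overlapped through control 1, which lay below mutants 5 and 6. The litter change of Hba-a2 was -1.92 (SE 0.372, edgeR adjusted p = 0.0139), or 3.78-fold lower in litter 2. The call was lost in females alone (adjusted p = 0.221), without mutants 1 and 4 (0.0610), without mutant 2 and without control 5, and the estimate ran from -2.22 to -1.49 over 18 alternatives. Its genotype value was 0.99 (SE 0.454, edgeR adjusted p = 0.544, unadjusted p = 0.0431), and from 0.23 to 1.46 when 1 library was left out.

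Hbb-bs had 10.03, 4.95, 9.79 and 20.2 CPM in controls 1 to 4 and 9.12 and 11.7 CPM in mutants 1 and 2. In litter 2 it had 2.31 and 2.30 CPM in controls 5 and 6 and 2.49, 5.14, 2.14 and 8.36 CPM in mutants 3 to 6. Mutants 4 and 6 overlapped the lowest library of litter 1, control 2. The litter change of Hbb-bs was -1.87 (SE 0.440, edgeR adjusted p = 0.0443), 3.65-fold lower in litter 2. This call was lost in 13 of 20 alternatives, among them those without any 1 of mutants 1 to 5 or controls 1, 3, 5 and 6, while the estimate stayed between -2.10 and -1.67. Its genotype value was 0.37 (SE 0.517, edgeR adjusted p = 0.924).

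Hba-a1 had 3.34, 17.7, 16.95 and 19.0 CPM in controls 1 to 4 and 16.7 and 18.1 CPM in mutants 1 and 2. In litter 2 it had 3.47 and 8.28 CPM in controls 5 and 6 and 5.82, 6.42, 4.71 and 8.36 CPM in mutants 3 to 6. Control 1 was the lowest of all 12 libraries, and the other 5 of litter 1 lay at or above 16.7 CPM. In the main fit, the litter change was -1.27 (SE 0.384, edgeR adjusted p = 0.121) and was not called. It was called in 3 of 20 alternatives: with no filter, without control 6 and without control 1 (-1.91, edgeR adjusted p = 0.00821). Because Hba-a1 levels form 2 clusters, no correlation with Hba-a2 over all libraries is given; within litter 1 Pearson's r was 0.80 (exact permutation p = 0.0389, n = 6) and within litter 2 it was 0.64 (exact permutation p = 0.200, n = 6). For Hba-a1 and Hbb-bs the within-litter values were 0.06 (exact permutation p = 0.814, n = 6) and 0.56 (exact permutation p = 0.186, n = 6).

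The adult globins share sequence. Of the distinct 50-base stretches of Hba-a1 and Hba-a2, 72.3 and 89.3% occur in the other alpha gene, and 53.2 and 58.3% of those of Hbb-bs and Hbb-bt occur in the other of that pair. The split of reads within each pair is therefore uncertain, and 13.6 to 23.0% of a file's total were alignments set aside as not unique. Hbb-y and Hbb-bh1 share no such stretch with another gene.

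**Figure D4:**
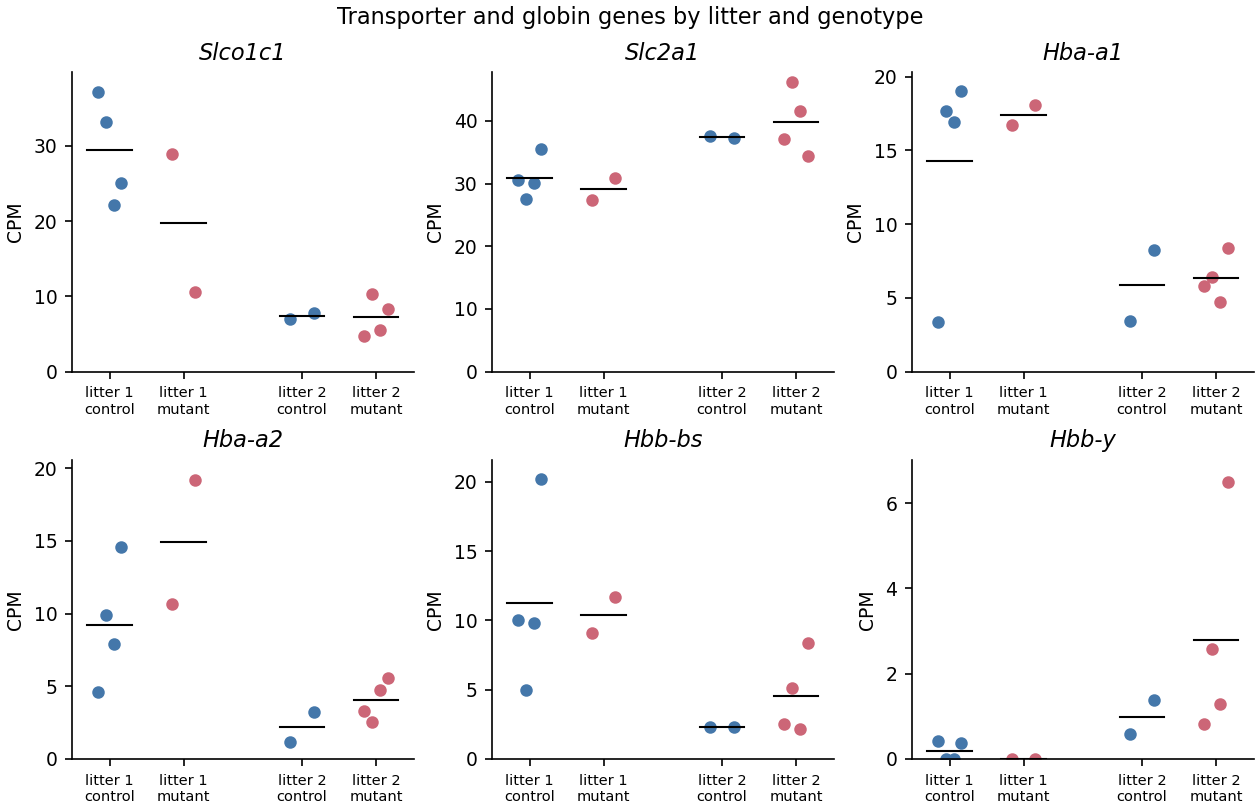
CPM of 2 barrier transporters and 4 globins in each library (points) by litter and genotype, with the group mean as a line; blue points are controls and red points mutants. Slco1c1, Hba-a1, Hba-a2 and Hbb-bs have lower group means in litter 2, with 1 or more libraries overlapping except for Slco1c1, Slc2a1 overlaps by 1 library, and Hbb-y is at 0 to 0.418 CPM in litter 1 and 0.579 to 6.51 CPM in litter 2.

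The embryonic beta-like globin Hbb-y (chromosome 7, 103851749 to 103853216, minus strand), used by primitive red cells, had 21 counts, 2 in litter 1 and 19 in litter 2. It was below the filter and was not tested. Controls 1 to 4 had 0.418, 0, 0 and 0.373 CPM and mutants 1 and 2 had 0. Controls 5 and 6 had 0.579 and 1.38 CPM and mutants 3 to 6 had 0.831, 2.57, 1.29 and 6.51 CPM. All 6 libraries of litter 2 had at least 1 count, as did 2 of the 6 of litter 1. The order between litters is not resolved for each library, since 1 count in the shallow mutants 1 and 2 is worth 1.52 and 1.06 CPM and controls 1 and 5 had 1 count each. With no filter the edgeR litter value was 2.45 (SE 1.02, adjusted p = 0.282), which was not called.

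The adult-type gene Hbb-bt had 22 counts, with 19 in litter 1 and 3 in litter 2. Controls 1 to 4 had 0.418, 0, 2.26 and 2.61 CPM and mutants 1 and 2 had 6.08 and 1.06 CPM. Controls 5 and 6 and mutants 4 and 5 were at 0, mutant 3 had 0.277 CPM and mutant 6 had 1.86 CPM. Hbb-bt was thus highest in mutant 1, on 4 counts, and at 0 in 1 library of litter 1 and 4 of litter 2. With no filter its edgeR litter value was -3.16 (adjusted p = 0.0480). That fit called 5 of the 33 genes and 593 of all 24283 genes between litters. Hbb-bh1, a further embryonic gene, had 1 count, in control 4 (0.373 CPM), and 0 in the other 11 libraries.

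A share within a library does not depend on its scaling, but it does depend on which reads were counted. Reads on stretches common to Hbb-bs and Hbb-bt can be set aside as not unique, whereas Hbb-y shares no such stretch. The Hbb-y shares below can therefore be too high, by an amount that was not tested. Hbb-y made up 2 of 150 counts on Hbb-bs, Hbb-bt, Hbb-y and Hbb-bh1 in litter 1 (1.33%, exact Clopper-Pearson 95% interval 0.162 to 4.73%). In litter 2 it made up 19 of 58 (32.8%, interval 21.01 to 46.3%). By library the share was 0 to 3.85% in litter 1 and 20.0 to 38.9% in litter 2, so the estimates of the litters did not overlap, in controls (5 and 6 at 20.0 and 37.5%) as in mutants, although the intervals of single libraries did. The libraries hold only 5 to 63 beta-like counts each, and 0 of 7 counts in control 2 allows a share of up to 42.9% at a limit of 3 counts (40.96% by the exact interval). Between genotypes the share was 15 of 67 in mutants (22.4%, interval 13.1 to 34.2%) and 6 of 141 in controls (4.26%, interval 1.58 to 9.03%), with 4 of 6 mutants but 2 of 6 controls from litter 2. The embryonic alpha-like gene Hba-x, which is not among the 33, had 2 counts in litter 1 and 13 in litter 2. This share was chosen after the values were seen and is given as a description with no test; the intervals cover counting error only.

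**Figure D5:**
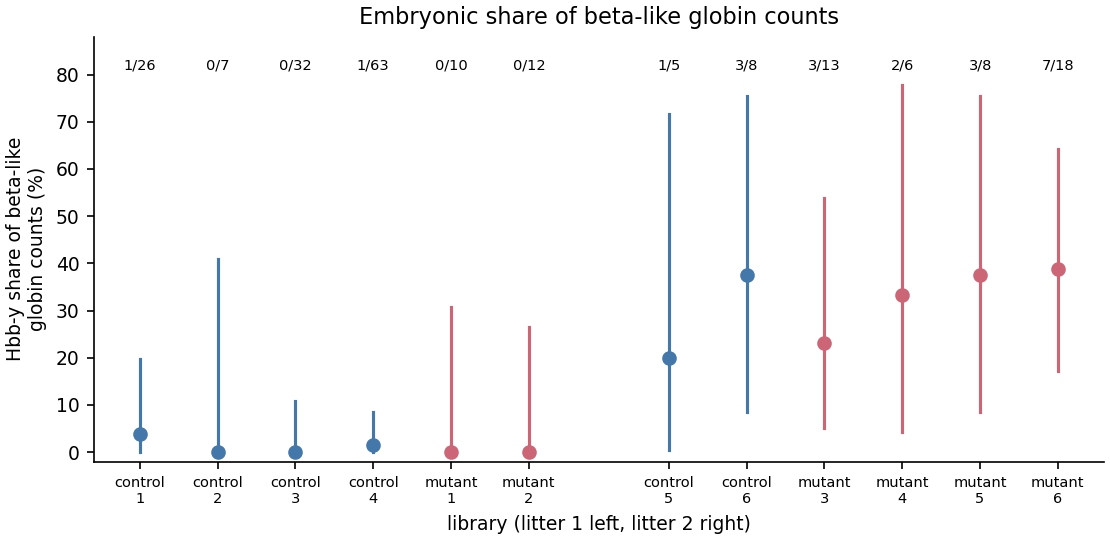
Share of Hbb-y among the counts on 4 beta-like globins in each library, in percent, with exact Clopper-Pearson 95% intervals; the numbers above give Hbb-y counts over all beta-like counts, blue marks controls and red mutants. The 6 libraries of litter 1 lie at 0 to 3.85% and the 6 of litter 2 at 20.0 to 38.9%.

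The last 2 red cell genes encode no globin. Alas2, the erythroid enzyme that starts haem synthesis, had 61 counts, 42 in litter 1 and 19 in litter 2, at 0 to 6.35 CPM and 0 to 3.72 CPM. Its whole locus on chromosome X lies within the annotated span of Apex2 on the opposite strand. Slc4a1, the anion exchanger band 3 of the red cell membrane, had 29 counts, 19 and 10, with 9 of them in control 2. Neither was tested, and with no filter neither was called.

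Sex and the interaction gave no call among these genes. Male against female called 0 of the 17 tested genes by edgeR, DESeq2 and limma-voom (0.00937% of all genes by edgeR). At an unadjusted p under 0.05 the counts were 0, 0 and 1, against 6.95% of all genes by edgeR. The litter by genotype term tests whether the genotype value differs between litters. It called 0 of 17 by each tool (0% of all genes by edgeR, 6 genes by DESeq2). At an unadjusted p under 0.05 it gave 0, 0 and 2, against 7.27% of all genes by edgeR. That test rests on mutants 1 and 2 for the litter 1 side.

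The wider sets of genes of the same cells and pathways gave no genotype call, where 0.215% of all genes tested were called. The counts were 0 of 14 further endothelial genes, 0 of 24 genes of vascular signalling and 0 of 5 mural genes tested. They were 0 of 20 for basement membrane genes and 0 of 19 for erythroid genes. In that order, the median genotype values of the sets were 0.04, 0.03, 0.09, -0.12 and 0.06. Between litters, 1 of the 14 further endothelial and 1 of the 19 erythroid genes were called, both higher in litter 2, and 0 of the 24, 5 and 20 genes of the other sets, beside the background of 1.31%. Igfbp7, a secreted binding protein of insulin-like growth factors made by brain vessels, had 4.26 to 8.48 CPM in litter 1 and 9.14 to 12.9 CPM in litter 2 (1.03, SE 0.244, edgeR adjusted p = 0.0443). Ank1, an ankyrin of the red cell membrane skeleton that neurons also use, had 55.3 to 94.2 CPM in litter 1 and 107.6 to 178 CPM in litter 2 (0.85, SE 0.154, edgeR adjusted p = 0.0139). Both genes separated the litters without overlap, in the opposite direction to Slco1c1. The erythroid transcription factor Gata1 was listed at 0 in every library.

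Other cell types were set beside the litter result. Of 9 cortical neuron genes tested, 7 were not called between litters, where 1.31% of all genes tested were called. Tbr1 and Bcl11b, transcription factors of deep-layer neurons, were called higher in litter 2 (0.74, SE 0.0988, edgeR adjusted p = 0.00125, and 0.68, SE 0.142, edgeR adjusted p = 0.0280). Tbr1 stood at 150 to 185 CPM in litter 1 and 202 to 326 CPM in litter 2. Microglial genes summed to 16.7 to 25.5 CPM in litter 1 and 15.4 to 25.1 CPM in litter 2. White cell and platelet genes summed to 0 to 2.57 CPM, with S100a8, S100a9, Mpo, Elane, Gp9 and Ppbp at 0 throughout. Meningeal genes summed to 29.3 to 38.0 CPM in litter 1 and 21.8 to 72.9 CPM in litter 2, and the 12 interneuron and striatal genes to 242 to 1589 CPM and 387 to 1792 CPM. Tbr1 and Bcl11b moved with litter, and the part of the cells they mark in the differences of Slco1c1 and the globins was not tested.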

How the data were processed

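Total RNA of 12 embryonic cortices was made into ribosome-depleted ClickSeq libraries, per the labels' protocols, in which terminated reverse transcription and click chemistry stand in for fragmenting and ligating. The submitters' processing notes name mm10, STAR 2.5.2a, HTSeq 0.6.1p1, UMI-tools 0.5.3, edgeR 3.20.9, cutadapt 1.13 and bcl2fastq 2.17. Order, strand setting, counting mode and the collapse of molecular tags are not given in the sources read here. Deposited files hold raw counts per Ensembl gene, to which the authors applied no normalization. The 5 closing entries that name no gene (20.7 to 31.6% of all entries of a file) were left out.

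Symbols, coordinates and exon lengths came from GENCODE M21 (GRCm38) and promoters from RefSeq (GRCm38.p6). The filter was filterByExpr, grouped by genotype, at a minimum count of 10. The fit was edgeR 4.0.16 in R 4.3.3 (TMM, estimateDisp, glmQLFit with robust = TRUE, glmQLFTest), with genotype, litter and sex as terms, which leaves 8 residual degrees of freedom. The SE is the log2 fold change over the square root of F, and 95% intervals use the normal quantile. CPM per kilobase divides by merged exon length. Correlations used log2(CPM + 1) and 100000 permutations, or all permutations within a litter (scipy 1.17.1). Further tests were limma-voom (limma 3.58.1) and DESeq2 1.42.0. The fitting code was tested on simulated data.

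Alternatives were RLE scaling, totals without globins, no filter, robust = FALSE, terms dropped, females alone, litter 2 alone, counts thinned to 643197 per library, and leaving out each library or mutants 1 and 4. The genes and lists were chosen with earlier results of these data known. Per-library values were given for genes called in any test, the 2 highest per kilobase in each class and the globins; from further lists, genes called were named. Tables and plots used Python 3.11.15, pandas 2.3.3 and matplotlib 3.10.9. All genes lie in 1 labelled batch.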

Additional observations from a re-analysis of the deposited data

Results flagged for a closer look

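In 10 of 66 sets of 6 libraries looked at (33 genes in each genotype), 1 library stood apart from the other 5 by Dixon's ratio at its 95% critical value. Chance gives this in about 1 set in 20 for normally distributed values. That rate does not hold for sets of few counts, so 10 of 66 is not read as an excess. Among mutants, mutant 1, the shallowest library, stood apart for Slco1c1 (28.87 CPM, 19 counts, the others 4.71 to 10.6 CPM), Robo4 (15.19 CPM, 10 counts, the others 0 to 3.72 CPM), Abcb1a (7.597 CPM, 5 counts) and Hbb-bt (6.077 CPM, 4 counts). For Slco1c1 the mutants of litter 1 were the 2 highest of the 6. Among controls, control 5 stood apart for Mfsd2a (12.15 CPM, the others 7.84 to 9.42 CPM). Control 2 stood apart for Kcnj8 (4.946 CPM, 7 counts) and for Slc4a1 (6.359 CPM, 9 counts), and control 1 for Vtn on the low side (0.418 CPM, 1 count, the others 1.74 to 2.30 CPM). Ly6c1 in control 3 (0.3767 CPM) and Hbb-bh1 in control 4 (0.3734 CPM) were single counts beside 0 in the other controls.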

How the results depend on the processing

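Between genotypes 0 of the vascular and blood genes fitted were called in each of 25 alternatives. All 33 were fitted only with no filter, 6 in thinned libraries and 16 to 20 in the others. The count over all genes, 23, became 95 with DESeq2, 44 in females alone and 64 in litter 2 alone. It became 141 without both covariates, 261 with no filter and 77 with sex dropped from the model. Without mutants 1 and 4 it was 0 (edgeR, 700 at an unadjusted p under 0.05, with no other tool run on that subset). It was 6 to 55 when 1 library was left out. Between litters the count over all genes, 140, became 263 with DESeq2, 32 in females alone, 593 with no filter and 45 without mutants 1 and 4, and 27 to 212 when 1 library was left out. Of the vascular and blood genes the 3 litter calls became 5 with no filter, 1 in females alone, 1 without mutants 1 and 4, and 1 to 3 when 1 library was left out. DESeq2 gave 0 (6 at an unadjusted p under 0.05) but an adjusted p to only 6 of the 17, none of them the 3 called genes or Hba-a1. Thinned libraries gave 0 (1 at an unadjusted p under 0.05) of 6 genes tested. Of 411 single-gene values for genotype, 371 kept sign and call (uncalled values within 1 SE), 16 kept the sign but moved further and 24 turned sign; of 350 for litter the counts were 317, 3 and 10, and 17 lost a call and 3 gained one. No value was called where its sign turned. The genotype value turned in litter 2 alone for Pecam1 (-0.27), Flt1 (-0.25), Eng (-0.060), Abcc9 (0.15), Col4a1 (-0.073) and Hba-a1 (-0.15). Without both covariates it turned for Flt1 (-0.087), Hba-a1 (-0.40), Hba-a2 (-0.089) and Hbb-bs (-0.72), and without the litter term for Flt1 (-0.022) and Hbb-bs (-0.42). It turned in females alone for Slc2a1 (-0.0004) and Col4a2 (0.022), and in thinned libraries for Col4a2 (0.024). Leaving out 1 library gave genotype values of -0.15 to 0.41 for Pecam1, -0.094 to 0.26 for Flt1, -0.26 to 0.055 for Kdr, -0.37 to 0.19 for Abcc9, -0.022 to 0.16 for Col4a1, -0.21 to 0.012 for Col4a2 and -0.29 to 1.65 for Hba-a1. The litter value turned for Pecam1 without mutants 1 and 4 (0.13), for Kdr (-0.20) and Col4a1 (-0.038) in females alone, and for Col4a1 in thinned libraries (-0.079). Leaving out 1 library gave litter values of -0.24 to 0.067 for Pecam1, -0.10 to 0.26 for Kdr, -0.22 to 0.085 for Abcc9, -0.037 to 0.23 for Col4a1 and -0.034 to 0.12 for Col4a2. The causes were not tested, except that thinning and DESeq2 leave fewer genes with an adjusted p. No paired analysis was possible because replicate numbers were given in accession order and pair no libraries; litter is a term of the model. With 1 count worth up to 1.52 CPM, depth limits the 16 genes that were not tested.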
